A study of Mus musculus with 16 samples.

Results

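The genes described here are the laminin chains, the basement membrane proteoglycans perlecan and agrin, and the nidogens of the mouse dorsal root ganglion (DRG), the cluster of sensory neuron cell bodies beside the spinal cord. The 10 genes were chosen by name (Lama2, Lama4, Lama5, Lamb1, Lamb2, Lamc1, Hspg2, Agrn, Nid1 and Nid2) from the 36722 genes of the deposited table. All 10 were above the minimum level for testing, as were 13385 genes in all. Polyadenylated RNA was sequenced from lumbar DRG (L3-L5) of C57BL/6 mice. All 16 libraries came from animals whose paw had been inflamed with 20 µl of 2% carrageenan, an irritant that gives lasting inflammatory pain, and 6 days later each animal had an injection into the spinal canal. The 6 fusion protein libraries followed 1 µg of IL4-10 FP, a protein that joins the anti-inflammatory cytokines IL4 and IL10. The 5 combination libraries followed the free cytokines, 0.5 µg IL4 and 0.5 µg IL10, and the 5 vehicle libraries followed PBS. Ganglia were taken 6 hours after this injection, and no group without inflammation was analysed here. The comparisons ask what the fusion protein changed, what the combination changed, and where they differed.

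A basement membrane is a thin sheet of extracellular matrix that wraps Schwann cells, satellite glia, perineurial cells, fat, muscle and blood vessels. Laminins are trimers of an α, a β and a γ chain, they assemble into a network on the cell surface, and integrins and dystroglycan hold that network to the cell. A separate type IV collagen network is joined to it by nidogens and by the heparan sulfate proteoglycans perlecan and agrin. In peripheral nerve the laminins of the Schwann cell sheath are needed for axon sorting and myelination, and loss of the α2 chain gives muscular dystrophy with neuropathy.

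The promoters of 3 genes are shown because these genes stand for the patterns below. Hspg2 and Lama5 were lower after both treatments and lowest after the combination. Nid1 was called between the treatments and not against vehicle. These promoters are RefSeq sequences of GRCm38.p6 that end just before the annotated start, written 5′ to 3′ on the strand of the gene. Capitals mark the GC box GGGCGG on either strand. The Hspg2 stretch is chr4:137468553-137468768 (+), that of Lama5 is chr2:180225860-180226109 (−), and that of Nid1 is chr13:13437352-13437550 (+).
Hspg2: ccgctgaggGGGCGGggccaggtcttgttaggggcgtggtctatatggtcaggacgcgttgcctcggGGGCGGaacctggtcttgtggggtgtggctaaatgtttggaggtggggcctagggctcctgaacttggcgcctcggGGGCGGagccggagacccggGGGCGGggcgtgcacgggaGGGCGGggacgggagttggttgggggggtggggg
Lama5: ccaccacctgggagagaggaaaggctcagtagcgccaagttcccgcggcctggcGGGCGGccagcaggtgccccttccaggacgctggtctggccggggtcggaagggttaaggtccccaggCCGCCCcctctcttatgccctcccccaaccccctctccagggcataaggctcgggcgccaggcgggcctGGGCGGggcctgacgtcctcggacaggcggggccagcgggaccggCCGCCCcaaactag
Nid1: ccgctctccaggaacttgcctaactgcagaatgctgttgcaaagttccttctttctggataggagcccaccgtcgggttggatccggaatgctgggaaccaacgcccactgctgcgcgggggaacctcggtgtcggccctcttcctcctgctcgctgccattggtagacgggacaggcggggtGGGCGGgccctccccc
Windows of 250 bases before the RefSeq start were found for 7 of the 10 genes, with 2 windows for Agrn. The GC box GGGCGG, on either strand, was present in 6 of these 8 windows and in 32.7% of 32851 windows of all genes. The Hspg2 window held 5, the Lama5 window 4, the Agrn windows 12 and 2, the Lamb1 window 2 and the Nid1 window 1. GC content was 70.0% in the Hspg2 window, 72.4% in the Lama5 window and 64.4% in the Nid1 window, against a median of 52.4% over all windows. The STAT motif, TTC and GAA with a spacer of 3 bases on either strand, occurred in 1 of the 8 windows (Lamb2) and in 7.02% of all windows. With a spacer of 4 bases, the form known for STAT6 downstream of IL4, it occurred in none of the 8 and in 5.85% of all windows. The AP-1 motif, TGA and TCA around 1 base (6.75% of all windows), and the TATA box TATAAA (12.4%) also occurred in none of the 8, on either strand. These matches describe the letters of the windows.

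Values are given as scaled values, the whole numbers recovered from the deposited variance-stabilised log2 values. They are scaled between libraries and are not read counts, so the read depth is unknown. Summed over all genes they came to 16707007 to 19083947 in fusion protein libraries, 18192127 to 20879857 in combination libraries and 17228512 to 18733358 in vehicle libraries. Differences are log2 differences of the deposited values with the SE and adjusted p of limma, called when adjusted p was under 0.05. The labels do not say that each library came from a separate mouse, so the p-values measure the spread between these libraries. In bulk tissue, fewer cells of a type and less RNA per cell cannot be told apart. The libraries also carry label numbers. The numbers 1 to 8 hold 4 fusion protein and 4 vehicle libraries. The numbers 12 to 19 hold all 5 combination libraries, 2 fusion protein libraries and 1 vehicle library, so label number and combination treatment can hardly be told apart. Where the label number is a term below, it marks only whether a library is numbered 12 or above. That term was estimated from fusion protein and vehicle libraries alone, of which 2 and 1 lie in that range.

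Per kilobase of exons, the γ1, β1 and nidogen-1 transcripts were the most abundant in vehicle ganglia. Nid1 averaged 279 ± 43.6 scaled units per kb, Lamb1 197 ± 17.8 and Lamc1 176 ± 25.8 (SD, n = 5 vehicle libraries). Lamb2 (132 ± 30.5), Agrn (106 ± 19.9), Hspg2 (103 ± 10.2) and Lama4 (102 ± 12.2) followed with overlapping spreads, then Nid2 (62.0 ± 9.12) and Lama2 (59.5 ± 12.3). Lama5 was the least abundant, at 18.1 ± 1.91. Nid1, Lamb1 and Lamc1 held the first 3 places, and Lama5 the last, in all 3 groups. Hspg2 was the 7th of the 10 in fusion protein libraries and the 9th in combination libraries, against the 6th in vehicle libraries.

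Perlecan, nidogen-2 and the laminin α5 chain fell after the fusion protein relative to vehicle, and the other 5 laminin chains among the 10 genes did not pass the test. After the combination, perlecan and α5 fell further, the β2 chain fell as well, and neither nidogen passed the test. With the GC and length trends of the libraries removed, as given below, nidogen-2 stayed called after the fusion protein, and perlecan and α5 stayed called after the combination. With the label number as a term, the difference between the treatments stayed called for α5 and not for perlecan. The mean scaled value of perlecan was 61.6% of the vehicle mean after the fusion protein and 43.2% after the combination. That of nidogen-2 was 61.0% of the vehicle mean after the fusion protein and 89.7% after the combination.

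**Figure D1:**
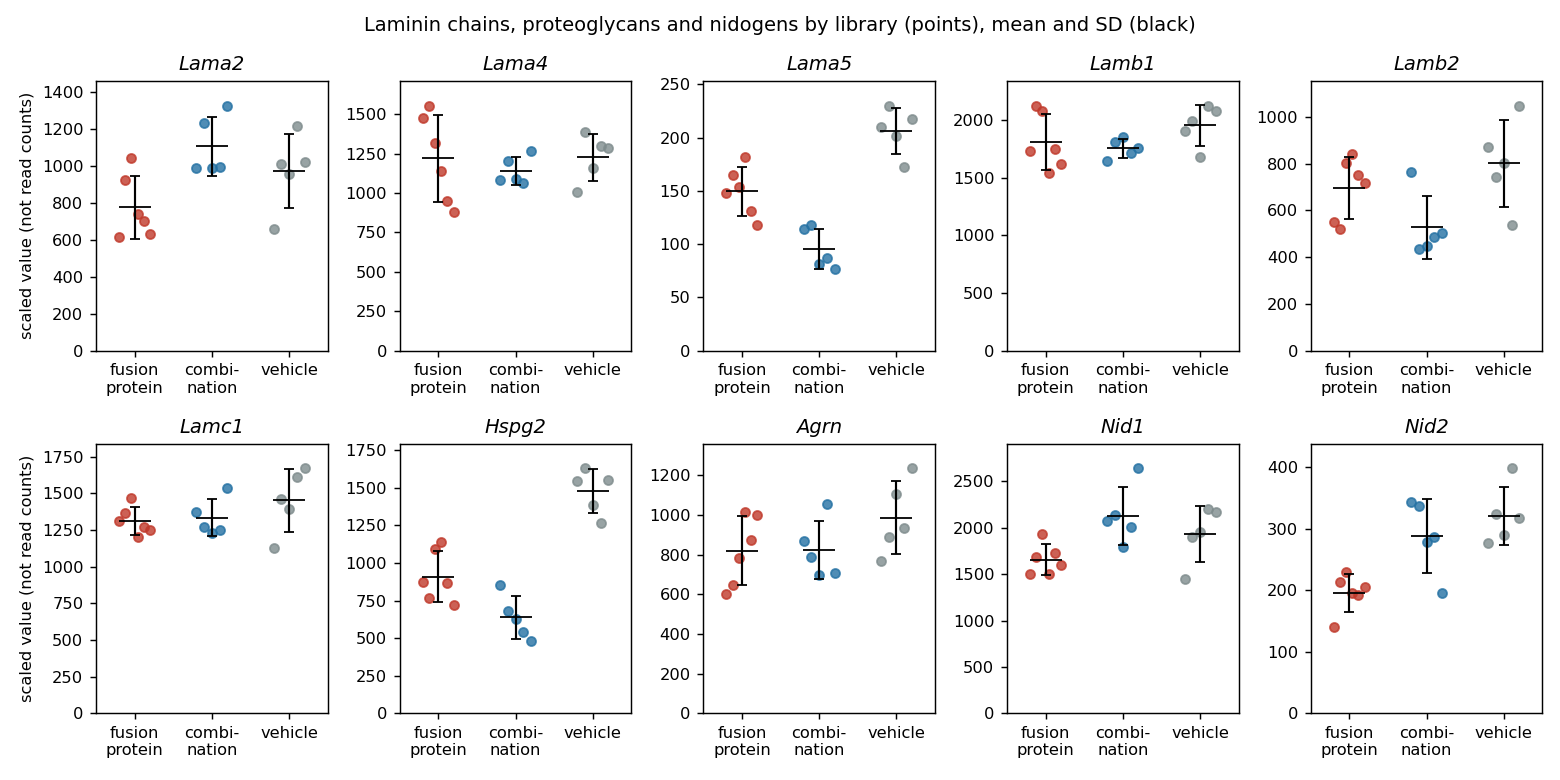
Scaled values of the 10 genes (vertical axis, from 0) in each library (points) of the fusion protein, combination and vehicle groups, with mean and SD in black. All Hspg2 points of both treated groups lie below the lowest vehicle point of 1269, Lama5 is lowest in the combination libraries (77 to 118), and Nid2 is lowest in the fusion protein libraries (140 to 230).

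Among the α chains, Lama5 encodes α5, the chain of vascular and epithelial laminins (GRCm38 chr2:180176373-180225859, minus strand, 79 exon blocks). Its scaled values were 118 at the lowest, 151 at the median and 182 at the highest in the 6 fusion protein libraries. They were 114, 118, 81, 87 and 77 in combination libraries, against 210, 230, 201, 172 and 217 in vehicle libraries. Every combination library was below every vehicle library, while 1 fusion protein library reached into the vehicle range. The log2 difference was −0.30 ± 0.08 for the fusion protein against vehicle (adjusted p = 0.0113) and −0.67 ± 0.08 for the combination against vehicle (adjusted p = 1.87e-05). The fusion protein was higher than the combination by 0.37 ± 0.08 (adjusted p = 0.00657). The deposited scale compresses the changes of weakly expressed genes. On the log2 scale of the scaled values plus 1, the same differences were −0.47, −1.12 and 0.65.

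Lama2 encodes α2, the chain of the Schwann cell and muscle sheath. It had scaled values of 616 to 1040 with a median of 721 in fusion protein libraries. The combination libraries had 990, 1230, 988, 992 and 1326, and the vehicle libraries 660, 1009, 957, 1218 and 1019. The fusion protein libraries were low against the combination, with 5 of 6 below its lowest library, and neither treated group stood apart from vehicle. Lama2 was 0.46 ± 0.13 lower after the fusion protein than after the combination (−0.46, adjusted p = 0.0187). This call was lost without combination replicate 2 or 5. The differences from vehicle were −0.29 ± 0.13 for the fusion protein (adjusted p = 0.124) and 0.18 ± 0.14 for the combination (adjusted p = 0.342). Without vehicle replicate 1, the lowest vehicle library, or without fusion protein replicate 3, Lama2 was called lower after the fusion protein than after vehicle.

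Lama4 encodes α4, a chain of vessel, fat and perineurial laminins. It spanned 882 to 1554 with a median of 1227.5 in fusion protein libraries, 1061 to 1269 in combination libraries and 1005 to 1385 in vehicle libraries. The fusion protein values enclosed those of both other groups. The 3 differences lay between −0.09 and 0.06 and none was called. Of the 3 α chains summed per kb in each library, Lama5 made up 8.24% ± 1.16 after the fusion protein, 4.95% ± 1.05 after the combination and 10.3% ± 1.88 after vehicle (SD). Lama2 made up 29.6% ± 4.37, 39.5% ± 1.76 and 33.0% ± 3.47 in the same order of groups. Lama4 remained the largest fraction throughout, with group means between 55.5% and 62.2%.

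Among the β and γ chains, Lamb2 encodes β2, the chain of synaptic and mature vascular laminins. It had scaled values of 521 to 841 with a median of 734 in fusion protein libraries. The combination libraries had 766, 434, 450, 487 and 502, against 872, 744, 804, 540 and 1049 in vehicle libraries. In the combination group 4 of 5 libraries were below the lowest vehicle library and replicate 1 was not. The difference was −0.51 ± 0.15 for the combination against vehicle (adjusted p = 0.0154). It was −0.17 ± 0.15 for the fusion protein against vehicle (adjusted p = 0.426). The fusion protein was 0.34 ± 0.15 above the combination without passing the test (adjusted p = 0.0826), and it passed without combination replicate 1, without fusion protein replicate 2, or with the label number as a term (0.51, adjusted p = 0.0397).

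Lamb1 and Lamc1 encode β1 and γ1, the β and γ chains shared by most laminins of the nerve. Lamb1 spanned 1540 to 2126 in fusion protein libraries, 1643 to 1849 in combination libraries and 1677 to 2123 in vehicle libraries. Lamc1 spanned 1204 to 1467 in fusion protein libraries, 1232 to 1537 in combination libraries and 1127 to 1672 in vehicle libraries. The ranges of both genes overlapped in all 3 groups and no comparison called either gene as deposited. With quantile normalization Lamb1 was called lower after the combination than after vehicle (−0.26, adjusted p = 0.00574). The 95% intervals of the differences from vehicle were −0.28 to 0.06 (fusion protein) and −0.32 to 0.03 (combination) for Lamb1. For Lamc1 they were −0.30 to 0.05 (fusion protein) and −0.29 to 0.08 (combination). Lamc1 was called lower after the fusion protein without vehicle replicate 1, the lowest vehicle library.

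Among the proteoglycans, Hspg2 encodes perlecan, the large heparan sulfate proteoglycan of vessel and perineurial basement membranes (GRCm38 chr4:137468769-137570630, plus strand, 97 exon blocks). Its scaled values were 720 at the lowest, 869.5 at the median and 1138 at the highest in fusion protein libraries. They were 855, 682, 630, 539 and 484 in combination libraries, against 1545, 1630, 1388, 1269 and 1553 in vehicle libraries. All libraries of both treated groups were below all vehicle libraries, and the treated groups overlapped each other. The differences from vehicle were −0.64 ± 0.12 for the fusion protein (adjusted p = 0.000858) and −1.09 ± 0.12 for the combination (adjusted p = 9.71e-06). The fusion protein was 0.45 ± 0.12 higher than the combination (adjusted p = 0.0134), with 4 of 6 libraries above every combination library. Leaving out any one library kept all 3 Hspg2 calls, with ranges of −0.71 to −0.59, −1.19 to −1.01 and 0.37 to 0.54. Measured within each library against Lamc1, the log2 ratio of Hspg2 averaged −0.49 ± 0.24 after the fusion protein, −0.96 ± 0.32 after the combination and 0.03 ± 0.27 after vehicle (SD). The highest fusion protein ratio (−0.07) was above the lowest vehicle ratio (−0.32), so these groups overlapped. Lamc1 is lower in GC content than Hspg2 (44.38% against 53.92%), and the ratio does not remove the GC trends given below.

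Agrn encodes agrin, the proteoglycan that clusters acetylcholine receptors at the neuromuscular junction and also lies in vessel and nerve basement membranes. It had scaled values of 604 to 1016 with a median of 830.0 in fusion protein libraries. The combination libraries had 871, 787, 700, 1055 and 706, and the vehicle libraries 768, 888, 1106, 934 and 1236. The groups overlapped and agrin was not called, with differences from vehicle of −0.24 ± 0.13 (fusion protein, adjusted p = 0.195) and −0.23 ± 0.14 (combination, adjusted p = 0.213). With the label number as a term, agrin was called lower after the combination than after vehicle (−0.48, adjusted p = 0.0285). Of Hspg2 and Agrn summed per kb, Hspg2 made up 42.1% ± 6.08 after the fusion protein, 33.5% ± 5.66 after the combination and 49.5% ± 5.56 after vehicle.

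The nidogens are rod-shaped glycoproteins that bind the laminin γ1 chain and type IV collagen. Nid2 had scaled values of 140 at the lowest, 200 at the median and 230 at the highest in fusion protein libraries. The combination libraries had 343, 337, 278, 286 and 195, against 277, 324, 289, 398 and 317 in vehicle libraries. All fusion protein libraries were below all vehicle libraries, while the combination libraries overlapped both groups. The difference was −0.50 ± 0.10 for the fusion protein against vehicle (adjusted p = 0.00166) and −0.12 ± 0.11 for the combination against vehicle (adjusted p = 0.382). The fusion protein was below the combination by a difference of −0.38 ± 0.10 (adjusted p = 0.0139). The Nid2 exons share 437 bases, or 8.45% of their length, with Rtraf on the opposite strand, and the strand used in counting is not given in the sources used here. Rtraf was 0.28 ± 0.08 higher after the fusion protein than after vehicle (adjusted p = 0.0115), the opposite direction to Nid2. After the combination, where Nid2 was not called, Rtraf was 0.46 ± 0.08 higher than after vehicle (adjusted p = 0.000272). The part of this overlap in the Nid2 values was not tested.

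Nid1 had scaled values of 1496 to 1934 with a median of 1640.0 in fusion protein libraries. The combination libraries had 2067, 2140, 1797, 2004 and 2640, against 1446, 1903, 1955, 2205 and 2167 in vehicle libraries. Of the fusion protein libraries, 5 of 6 were below every combination library, and neither treated group stood apart from vehicle. Nid1 differed by −0.33 ± 0.10 between fusion protein and combination (adjusted p = 0.0228). This call was lost without fusion protein replicate 4, combination replicate 2 or combination replicate 5. It was also lost with quantile normalization (−0.21, adjusted p = 0.116) and with the label number as a term (−0.28, adjusted p = 0.0959). The differences from vehicle were −0.20 ± 0.10 (fusion protein, adjusted p = 0.156, called without vehicle replicate 1) and 0.13 ± 0.11 (combination, adjusted p = 0.348). The antisense transcripts Gm48682 in Nid1 and Gm48084 in Lama2 share 2.06% and 3.86% of the exonic bases of those genes.

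Counted together, 3 of the 10 genes were lower after the fusion protein than after vehicle and none was higher, where 25.8% of all tested genes were called (12.0% higher, 13.7% lower). All 10 differences were below 0, with a median of −0.22 against −0.02 for all tested genes. The share of all tested genes below 0 was not counted. With the GC and length trends removed, as given below, the median of the 10 genes was −0.02 (−0.47 to 0.12). It was −0.01 for all tested genes in that fit. The combination against vehicle also called 3 of 10, all lower, where 36.5% of all tested genes were called (24.2% higher, 12.3% lower). In this comparison 8 of 10 differences were below 0, and the median was −0.13 against 0.06 for all tested genes. With the trends removed it was −0.14 (−0.72 to 0.12) against 0.01. Fusion protein against combination called 5 of 10, with 2 higher and 3 lower, where 29.5% were called (7.35% higher, 22.2% lower). Groups without overlap were found for 2 of the 10 genes in each comparison with vehicle, against 14.3% (fusion protein) and 23.0% (combination) of all tested genes. No gene of the 10 was without overlap between fusion protein and combination, against 9.53% of all tested genes. Both comparisons with vehicle use the same 5 vehicle libraries.

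The 10 genes fell into 2 sets by GC content. Lama5, Lamb2, Hspg2 and Agrn are GC-rich genes (53.65% to 55.75%), and the other 6 lie between 37.66% and 47.16%. After the combination the GC-rich genes had a median difference from vehicle of −0.59 (−1.09 to −0.23), against −0.10 (−0.14 to 0.18) for the other 6. With the GC and length trends removed, as given below, these medians were −0.24 (−0.72 to 0.08) and −0.12 (−0.16 to 0.12). After the fusion protein, as deposited, the medians were −0.27 (−0.64 to −0.17) and −0.16 (−0.50 to −0.03), with overlapping ranges. Between fusion protein and combination they were 0.36 (−0.01 to 0.45) and −0.18 (−0.46 to 0.06), and the ranges also overlapped. All tested genes leaned the same way: in the combination comparison with vehicle the median difference was 0.20 in the 1342 genes lowest in GC content and −0.21 in the 1337 genes highest in it. Of those 1337 genes 39.2% were called lower.

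**Figure D2:**
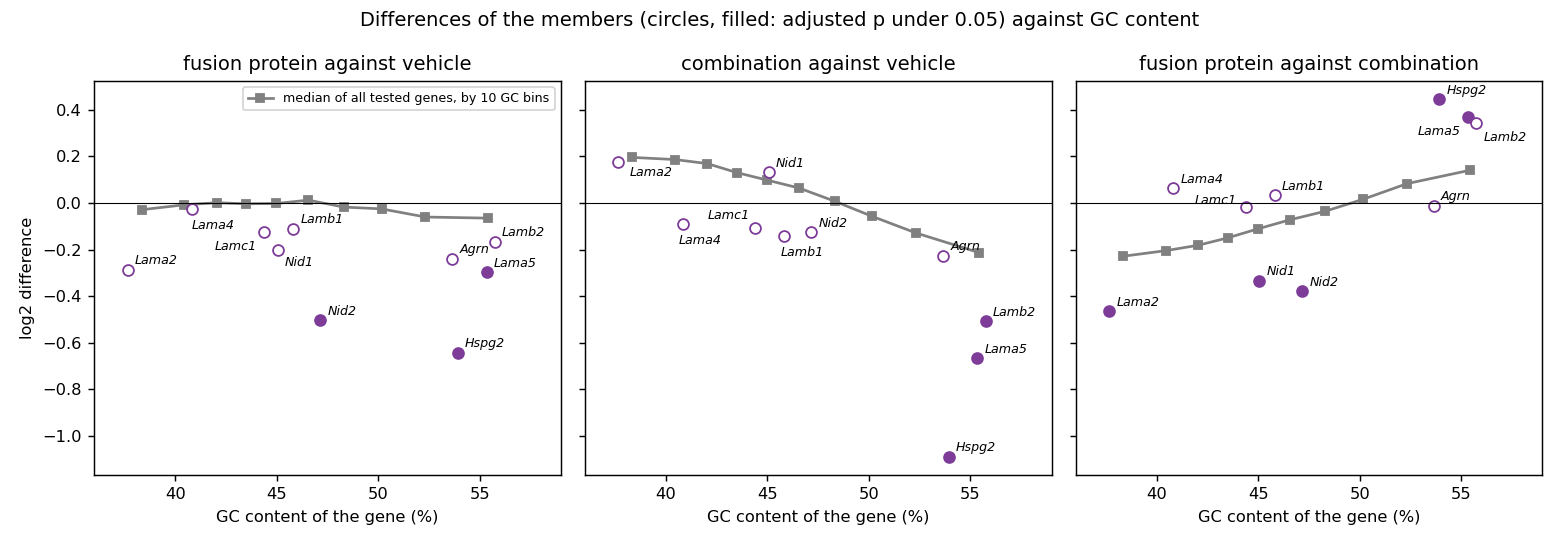
Log2 difference of each of the 10 genes (circles, filled when adjusted p was under 0.05) against the GC content of the gene in percent, with the median of all tested genes in 10 bins of GC content (grey squares), for the 3 comparisons. In the combination against vehicle the grey line declines to −0.21 and Hspg2 lies at −1.09, Lama5 at −0.67 and Lamb2 at −0.51, all below it.

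A slope was fitted for each library: how far its values departed from the average library for every SD of GC content. This GC slope averaged 0.0311 ± 0.0656 in fusion protein libraries, −0.0847 ± 0.0518 in combination libraries and 0.0474 ± 0.0696 in vehicle libraries (SD). For combination against vehicle the exact permutation p was 0.0159 (0.0346 after adjustment over 6 tests), for fusion protein against combination it was 0.0173 (0.0346 adjusted), and for fusion protein against vehicle it was 0.688 (0.688 adjusted). The slope on log2 exonic length averaged −0.0541 ± 0.0419, 0.0161 ± 0.0372 and 0.0489 ± 0.0491 in the same order of groups. The exact permutation p was 0.00866 for fusion protein against vehicle (0.0346 adjusted), 0.026 for fusion protein against combination (0.039 adjusted) and 0.262 for combination against vehicle (0.314 adjusted). When both slopes were fitted together, a choice made after seeing the data, combination against vehicle did pass for length (difference −0.0841, exact permutation p = 0.00794, adjusted 0.0159). Fusion protein against combination did not (difference −0.0366, exact permutation p = 0.0433, adjusted 0.0519).

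With the GC and length trends of each library removed, the fusion protein comparison with vehicle called 1 of the 10 genes. Nid2 kept its value (−0.47, adjusted p = 0.00391), Hspg2 lay at −0.32 (adjusted p = 0.0625) and Lama5 at −0.00 (adjusted p = 0.993). The combination kept Hspg2 (−0.72, adjusted p = 0.000717) and Lama5 (−0.29, adjusted p = 0.0288), and Lamb2 lay at −0.20 (adjusted p = 0.289). Between fusion protein and combination, Lama5 (0.29, adjusted p = 0.0432), Hspg2 (0.40, adjusted p = 0.0439) and Nid2 (−0.34, adjusted p = 0.0436) stayed called and Lama4 was also called (0.28, adjusted p = 0.0321). Lama2 (−0.21, adjusted p = 0.167) and Nid1 (−0.23, adjusted p = 0.0963) were not. Adding the label number to the trends, the combination against vehicle called Hspg2 alone (−0.58, adjusted p = 0.0323), and fusion protein against combination called none.

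**Figure D3:**
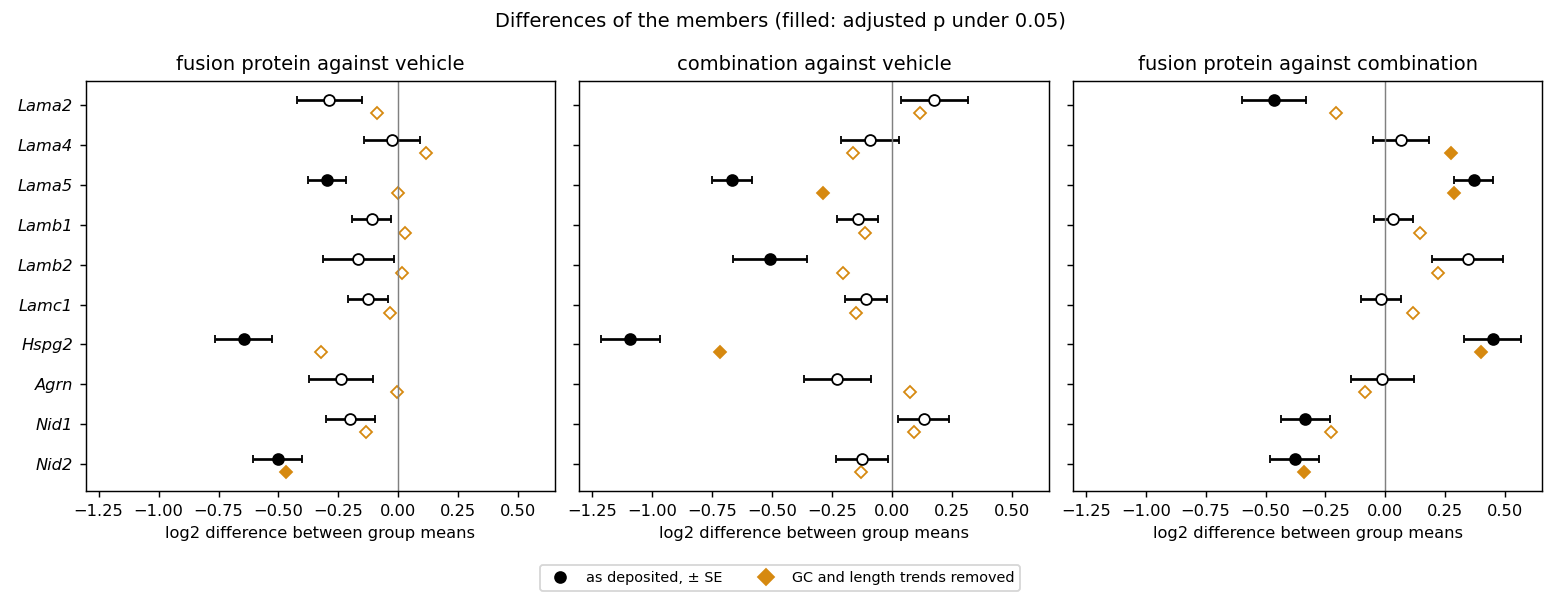
Log2 differences of the 10 genes (horizontal axis) in the 3 comparisons, as deposited with SE (black circles) and with the GC and length trends of each library removed (orange diamonds), filled when adjusted p was under 0.05. Hspg2 against vehicle moves to −0.32 after the fusion protein and −0.72 after the combination, Nid2 stays at −0.47 after the fusion protein, and Lama5 moves to −0.00 after the fusion protein.

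Within the label numbers 1 to 8, with 4 libraries in each group, the fusion protein differences from vehicle were −0.54 for Hspg2 (adjusted p = 0.0146), −0.51 for Nid2 (adjusted p = 0.0157) and −0.21 for Lama5 (adjusted p = 0.0947). Within the numbers 12 to 19, with 5 combination libraries and a single vehicle library assumed to vary like the others, they were −1.16 for Hspg2 (adjusted p = 0.00612), −0.72 for Lama5 (adjusted p = 0.0166) and −0.88 for Lamb2 (adjusted p = 0.0215). Between fusion protein (2 libraries) and combination in that range, Lama2 (−0.63, adjusted p = 0.00204), Lamb2 (0.42, adjusted p = 0.0412) and Lama4 (−0.28, adjusted p = 0.0465) were called, and Lama5 (0.22, adjusted p = 0.158) and Hspg2 (0.28, adjusted p = 0.153) were not.

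Within groups the 10 genes moved in subsets. Over the 45 pairs, the correlation of deviations from the group means across 16 libraries had a median of 0.12. Lamc1 and Nid1 correlated at 0.91, Lama2 and Nid1 at 0.84, Lama2 and Lamc1 at 0.78, and Lama5 and Hspg2 at 0.76. The lowest pair was Lama4 with Agrn at −0.50. The median was 0.42 among the 4 GC-rich genes, 0.47 among the other 6 and −0.03 between these sets; the genes share libraries, scaling and GC content. The tested genes most like the mean of the 10 across the 16 libraries were Col5a1 (r = 0.91), Sox13 (0.90), Zbtb49 (0.89), St5 (0.89) and Tmem108 (0.88), chosen by this correlation.

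Lists of related genes were counted in the same way. Of all tested genes, 12.0% were called higher and 13.7% lower after the fusion protein than after vehicle. After the combination these shares were 24.2% and 12.3%, and between fusion protein and combination 7.35% and 22.2%. A list called at about these shares does not stand out from all tested genes. Of 6 tested basement membrane collagens, 3 were lower after the combination than after vehicle, 1 was lower after the fusion protein, and 3 were higher after the fusion protein than after the combination. The type IV collagen chains Col4a1 and Col4a2 differed by −0.55 ± 0.10 and −0.70 ± 0.12 between combination and vehicle (adjusted p = 0.000528 and 0.000217). Col18a1, the collagen that holds endostatin, differed by −0.85 ± 0.15 (adjusted p = 0.000369). After the fusion protein these 3 genes were between −0.05 and 0.06 from vehicle and were not called. They were higher after the fusion protein than after the combination by 0.61 ± 0.10, 0.67 ± 0.11 and 0.80 ± 0.14 (adjusted p = 0.00125, 0.00184 and 0.00281). These 3 calls were kept with the trends and label number accounted for (adjusted p = 0.021, 0.0333 and 0.0416). In the same fit the 3 calls for combination against vehicle were lost (adjusted p = 0.0598, 0.0584 and 0.0756). Col15a1, a collagen of the outer basement membrane, was lower after the fusion protein (−0.36 ± 0.07, adjusted p = 0.00207). After the combination Col15a1 lay at −0.18 ± 0.08 (adjusted p = 0.0698). Its difference between fusion protein and combination was not called (−0.17 ± 0.07, adjusted p = 0.0839).

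Of 15 tested laminin receptor genes, 5 were lower and none higher after the fusion protein than after vehicle. After the combination 5 were lower and 3 higher. Over all tested genes 25.8% were called after the fusion protein and 36.5% after the combination. Dag1 encodes dystroglycan, the laminin receptor of Schwann cells and muscle, and was lower after both, by −0.36 ± 0.07 (fusion protein, adjusted p = 0.0017) and −0.34 ± 0.08 (combination, adjusted p = 0.00223). Itgb4, the integrin β4 subunit, was also lower after both, by −0.64 ± 0.13 (adjusted p = 0.00162) and −0.50 ± 0.13 (adjusted p = 0.00696). Itga3, a laminin-binding integrin α subunit, was lower after the combination (−0.46 ± 0.08, adjusted p = 0.000355) and lay at −0.21 ± 0.08 after the fusion protein (adjusted p = 0.0578). Dmd, which encodes dystrophin, was lower after the fusion protein (−0.33 ± 0.08, adjusted p = 0.0078) and lay at 0.17 ± 0.09 after the combination (adjusted p = 0.151). Once GC and length trends were removed, the Dmd call after the fusion protein was lost (−0.05, adjusted p = 0.644), as was the Itgb4 call after the combination (−0.24, adjusted p = 0.192).

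**Figure D4:**
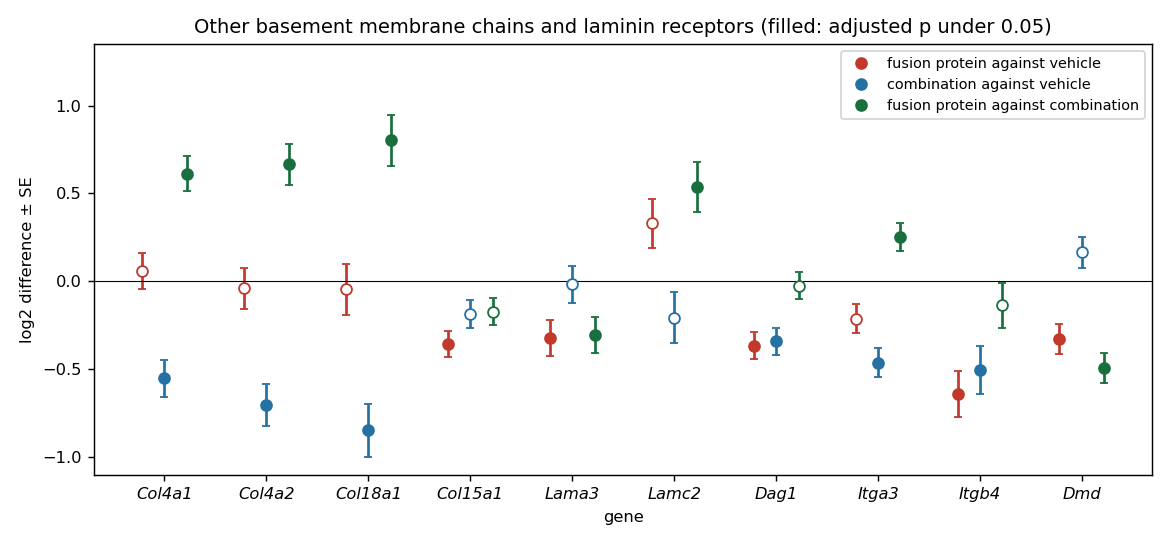
Log2 difference with SE of type IV, XVIII and XV collagens, other laminin chains and laminin receptors (horizontal axis) for fusion protein against vehicle, combination against vehicle, and fusion protein against combination, filled when adjusted p was under 0.05. Col4a1, Col4a2 and Col18a1 lie between −0.55 and −0.85 for the combination against vehicle and near 0 for the fusion protein against vehicle.

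Of 4 tested other laminin chains, Lama3 was lower after the fusion protein than after vehicle (−0.32 ± 0.10, adjusted p = 0.0241), a call that 4 of 16 left-out libraries undid. Of the 4 genes of the agrin receptor complex, Lrp4, the agrin receptor, was lower after the combination than after vehicle (−0.38 ± 0.11, adjusted p = 0.00934). Of 13 genes that bind the basement membrane, none was called after the fusion protein, and 1 was higher and 1 lower after the combination. Sparc, a collagen-binding matricellular protein, differed by 0.23 ± 0.08 (adjusted p = 0.0327), and Fbln2, a nidogen and laminin partner, by −0.30 ± 0.09 (adjusted p = 0.0183). The Sparc call was lost in 5 of 16 left-out libraries and lay at 0.02 with quantile normalization (adjusted p = 0.846), and the Fbln2 call was lost in 3 of 16. With the GC and length trends removed, Lama3 (−0.18, adjusted p = 0.173), Lrp4 (−0.27, adjusted p = 0.0767) and Fbln2 (−0.11, adjusted p = 0.4) lost their calls.

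Of 14 tested heparan sulfate enzymes, which make and trim the chains that perlecan and agrin carry, 1 was lower after the fusion protein, and 5 were lower and 2 higher after the combination. Sulf2, which removes 6-O-sulfates, was lower after both, by −0.25 ± 0.07 (adjusted p = 0.0197) and −0.30 ± 0.08 (adjusted p = 0.00574). The 2 higher after the combination were Glce (0.49 ± 0.08, adjusted p = 0.000127) and Hs6st2 (0.33 ± 0.08, adjusted p = 0.00274). Hs3st1 was lower (−0.28 ± 0.07, adjusted p = 0.00365). The Glce, Hs6st2 and Hs3st1 calls were kept with the trends removed (0.32, 0.19 and −0.58). With the label number too, Glce (adjusted p = 0.0922) and Hs6st2 (adjusted p = 0.323) lost theirs. Of 9 tested cell surface heparan sulfate proteoglycans, 1 was higher and 2 were lower after the fusion protein, and 3 were higher and 2 lower after the combination. Gpc3 (glypican-3) was 0.40 ± 0.07 higher after the combination (adjusted p = 0.000326) and Gpc1 (glypican-1) differed by −0.48 ± 0.10 (adjusted p = 0.000919). Gpc1 was also called lower after the fusion protein (−0.28 ± 0.09, adjusted p = 0.0318). That call was lost in 4 of 16 left-out libraries and with the trends removed (−0.15, adjusted p = 0.0878). With the trends removed, Sulf2 lost its call after the fusion protein (−0.11, adjusted p = 0.237) and after the combination (−0.09, adjusted p = 0.404). Gpc3 lost its call too (0.10, adjusted p = 0.33). Of 19 tested matrix proteases and inhibitors, 2 were higher and 1 lower after the fusion protein, and 2 were higher and 2 lower after the combination. The matrix metalloprotease Mmp3, which cleaves laminin and nidogen, was higher after the fusion protein than after vehicle (1.27 ± 0.20, adjusted p = 0.000464), as was the inhibitor Timp1 (1.63 ± 0.43, adjusted p = 0.013). Mmp3 was weakly expressed, with a mean log2 value of 7.94 after the fusion protein, 7.07 after the combination and 6.67 after vehicle. The vehicle mean lay below the 6.99 set for testing. Its place among the tested genes therefore rested on the treated libraries, of which the fusion protein group was highest. After the combination, Mmp3 lay at 0.40 ± 0.21 (adjusted p = 0.153) and Timp1 at −0.31 ± 0.44 (adjusted p = 0.625) from vehicle.

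Markers of cells that make or border these sheets were measured beside the 10 genes. Their counts stand beside the 25.8% (fusion protein) and 36.5% (combination) of all tested genes called against vehicle. Of 9 endothelial markers, 1 was higher after the fusion protein, and 2 were higher and 1 lower after the combination. Their summed scaled value was 2986 to 3804, 3011 to 3500 and 2995 to 3584 in fusion protein, combination and vehicle libraries. The defining marker Pecam1 was at 681 to 875, 663 to 927 and 583 to 651, above all vehicle libraries in both treated groups. Of 7 tested pericyte and smooth muscle markers, 2 were lower after the fusion protein, and 1 was higher and 3 lower after the combination. Their sum was 7233 to 8861 in fusion protein, 8330 to 9484 in combination and 6185 to 8931 in vehicle libraries, and the defining marker Pdgfrb was at 547 to 1003, 483 to 594 and 681 to 895. Of 9 Schwann cell markers none was called after the fusion protein and 3 were higher after the combination. Of 8 fibroblast and perineurium markers, 1 was higher and 2 were lower after the fusion protein, and 3 were higher and 2 lower after the combination. Their sum was 18777 to 22407 in fusion protein, 20229 to 26574 in combination and 16978 to 19702 in vehicle libraries. After the combination this sum was above all vehicle libraries. Their defining marker Pdgfra overlapped, at 456 to 763, 517 to 738 and 423 to 576. Of 9 macrophage markers, 5 were higher after the fusion protein (sum 2450 to 6025, against 1612 to 2821 in vehicle libraries) and 2 after the combination. Of 7 satellite glia markers, 1 was lower after the fusion protein and 3 were higher after the combination. Their defining marker Fabp7 was at 1086 to 1932, 2578 to 3257 and 1140 to 2076 in fusion protein, combination and vehicle libraries, above all vehicle libraries after the combination. The sum of the satellite glia markers overlapped between all groups (36058 to 70520, 40117 to 50420 and 33863 to 53669). Of 10 neuronal markers, 1 was higher and 1 lower after the fusion protein, and 2 were higher and 1 lower after the combination. Their defining marker Rbfox3 was at 1576 to 2154, 1632 to 2131 and 2226 to 2908, below all vehicle libraries in both treated groups. The sum of the neuronal markers overlapped between all groups (258723 to 405062, 295741 to 361062 and 271649 to 344602). No defining marker was at 0 in any group. The part of these cells, of GC content and of label number in the values above was not tested beyond the fits given.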

How the data were processed

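Per the submitters' processing notes, FastQC, STAR, HTSeq and DESeq2 were used with build GRCm38. Versions are not given there. The authors deposited log2 values after variance stabilisation. Inverting a 2-parameter transform, estimated from the 60 lowest among 11441 distinct values, turned 100% of them into whole numbers within 0.01. These scaled values are not read counts, and how the libraries were scaled is not given in the sources used here. GC content was deposited as a percent of each gene. The deposited p-value columns do not name a comparison and were not used.

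Genes with a mean log2 value of at least 6.99, which is 1 above the lowest value, were tested. The 3 comparisons were fitted in 1 model of 16 libraries with limma 3.58.1 in R 4.3.3 (eBayes with trend and robust options). Tests were two-sided, p-values were adjusted by Benjamini-Hochberg over 13385 genes, and the threshold was 0.05. The fit was tested on simulated data. Slopes were compared with two-sided exact permutation tests, first with length and GC content fitted separately. The joint fit was added after seeing the separate slopes, and both are given. Exonic lengths and positions came from GENCODE for GRCm38, with a length for 99.9% of tested genes, and promoters from RefSeq. Tables and figures were made with Python 3.11.15.

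The 10 genes and all lists were chosen with earlier results of these data known. All 10 are named. Of each pathway list, up to 4 genes past the threshold, by the lowest p, may be named, and of marker lists only counts, sums and the defining marker. Alternatives were other scalings, filters, fits, left-out libraries, label numbers and removed GC and length trends.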

Additional observations from a re-analysis of the deposited data

Results flagged for a closer look

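Lamb2 in combination replicate 1 stood apart from the other combination libraries, with a log2 value of 9.80 and a scaled value of 766, against 434 to 502 in the other 4. The gap to the nearest library was 0.752 of the range of the 5 libraries, above the limit of 0.71. Of 30 groups of the 10 genes 1 was flagged, and chance flags about 1 in 20. Without this library the Lamb2 difference between fusion protein and combination passed the threshold.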

How the results depend on the processing

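Of 870 values of single genes under alternatives, 776 kept direction and call, 38 lost the call, 12 gained it and 44 changed sign. The 10 genes counted 3 calls for fusion protein against vehicle, 3 for combination against vehicle and 5 for fusion protein against combination. For fusion protein against vehicle the count was 1 with the GC and length trends removed, alone, with the label number or with the replicate block, and 3 to 6 when single libraries were left out (6 without vehicle replicate 1). For combination against vehicle it was 1 with trends and label number, and 3 without any single library. For fusion protein against combination it was 0 with trends and label number, 3 with trends and replicate block, 3 within label numbers 12 to 19, 0 without a filter, and 3 to 6 over left-out libraries (3 without combination replicate 2 or 5).

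Over all genes, fusion protein against vehicle called 3450, against 2163 within label numbers 1 to 8 and 1925 without a filter (2543 to 3749 over left-out libraries). Combination against vehicle called 4891, against 1683 with trends and label number, 764 within label numbers 12 to 19 and 3178 without a filter (4033 to 5369). Fusion protein against combination called 3950, against 1575 with trends removed, 921 with the label number too, 1827 with the block too, 195 without a filter and 2363 with quantile normalization. Over left-out libraries it called 1999 (without combination replicate 2) to 5247, with 2496 without combination replicate 5 and 2563 without fusion protein replicate 4. Its calls were 984 higher and 2966 lower, against 975 and 1388 with quantile normalization and 661 and 914 with trends removed. The cause of these shifts was not tested.

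For fusion protein against vehicle, Lama4 was 0.12 with trends removed, 0.14 with the label number too, 0.17 with the block too, 0.16 within label numbers 1 to 8, 0.013 with the label number and 0.052 with the block (−0.096 to 0.052 over left-out libraries). In the same comparison Lama5, called at −0.30, was 0.024 with trends and label number and 0.048 with trends and block. Lamb1 was 0.030, 0.030 and 0.047 with trends, trends and label number, and trends and block. Lamb2 was 0.016 with trends and 0.023 with trends and block. For combination against vehicle, Lama4 was 0.14 with the label number, Agrn 0.076 with trends and 0.076 with trends and block, and Nid1 −0.011 with trends and label number and −0.034 within label numbers 12 to 19. For fusion protein against combination, Lama4 was −0.28 within label numbers 12 to 19, where it was called, and −0.13 with the label number (−0.0057 to 0.14 over left-out libraries). Lamb1 was −0.054 within label numbers 12 to 19 (−0.013 to 0.074 over left-out libraries). Lamc1 was 0.11 with trends, 0.18 with trends and label number, 0.11 with trends and block, 0.013 with the label number, 0.013 with median centring and 0.084 with quantile normalization (−0.049 to 0.030 over left-out libraries). Agrn was 0.081 with trends and label number, 0.17 within label numbers 12 to 19, 0.20 with the label number, 0.019 with median centring and 0.053 with quantile normalization (−0.071 to 0.070 over left-out libraries). Fitted together with GC content, the length slope differed by −0.0841 (combination against vehicle, now past the threshold) and −0.0366 (fusion protein against combination, no longer past it).

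Same-numbered libraries correlated at −0.196 to 0.598, over 0.1 in 7 of 15 pairs, and 1 of 15 libraries correlated best with its own number, so the numbers were not taken to pair the samples. The replicate block alone called 3216, 5195 and 3429 genes in the 3 comparisons. The read depth is unknown, so no counting error can be given, and the labels do not say that the libraries are separate mice.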
